A study of Mus musculus with 786 samples.

Results

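The genes described here encode the subunits of the proteasome, in stem and progenitor cells of mouse bone marrow. They were chosen by name: every gene whose symbol starts with Psma, Psmb, Psmc or Psmd followed by a digit, without the interferon-inducible subunits Psmb8, Psmb9 and Psmb10. The rule found 37 of the 21664 genes in the single-cell tables, 16 named Psma or Psmb, called core here, and 21 named Psmc or Psmd, called regulatory here. In the bulk table it found 35 of 18855 genes, because Psma8 and Psmb11 have no row there. The rule also catches Psma8, a core subunit known from testis, Psmb11, a core subunit known from the thymus, and Psmc3ip, a meiotic recombination factor that is no proteasome subunit and only shares the letters of the name. Psmd5, Psmd9 and Psmd10 carry subunit names but encode chaperones that help to assemble the base of the regulatory particle. The 21 regulatory members thus hold 17 subunits of the ATPase ring, base and lid, and the core members 14 constitutive subunits.

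The proteasome breaks down proteins that carry a ubiquitin tag. Its core particle is a barrel: outer rings of Psma subunits form the gate, and inner rings of Psmb subunits hold the protease sites on Psmb5 (chymotrypsin-like), Psmb6 (caspase-like) and Psmb7 (trypsin-like). The regulatory particle caps the barrel. Its base holds the ring of Psmc ATPases that unfold the substrate, and its lid removes the ubiquitin through Psmd14. Blood stem cells are known for a low rate of protein synthesis, which makes their protein turnover a subject of study.

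Messenger RNA was measured by sequencing in cells from C57BL6 mice aged 6 to 8 weeks, sorted from bone marrow by surface markers. Single-cell wells of mice that had been bled made up 1 plate of haematopoietic stem cells (bled HSC) and 1 plate of the first multipotent precursors (bled MPP1). Normal mice gave MPP1 plates 1 and 2 and HSC plates 1 and 2. MPP1 were sorted as CD48-CD150+CD135-CD34+, and HSC by the same markers but CD34-. HSC plate 3 received an RNA spike-in and a different capture and library protocol, and the note on its animals speaks of both normal and bled mice, so its values are given beside the others and entered no test. The labels do not give how much blood was taken, or when. A further 18 bulk libraries, 1 per sorted population, were made from 1000 cells each: CFU-E (erythroid colony-forming unit), CLP and CLP Sca1 high (common lymphoid progenitors), CMP (common myeloid progenitor), GMP-7 and GMP-11 (granulocyte-macrophage progenitors sorted by different markers), HSC, MEP (megakaryocyte-erythroid progenitor), MKP (megakaryocyte-committed progenitor), MPP1 to MPP4, Mature Meg (mature megakaryocyte), ProEry (pro-erythrocyte), PreCFU-E, preGM and preMegE (the precursors of the erythroid, granulocyte-macrophage and megakaryocyte-erythroid branches). The label of the bulk HSC library gives CD34+, as for MPP1, so its sort cannot be told apart from that of bulk MPP1 by the label.

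Cells entered when the label of the well gave 1 cell and at least 1000 genes reached FPKM 1 (fragments sequenced from a gene, relative to the length of its transcript and the size of the library). This held for 373 of 460 such wells, 48 to 73 per plate. The 150 wells labelled as holding no cell serve as background. The plate is the replicate, and its level for a gene is the mean FPKM over its cells. Plates differed in how many genes their cells showed: the median was 2443 in bled HSC and 3046.5 in bled MPP1, 2535 and 2520.5 in MPP1 plates 1 and 2, and 2157.5, 2594 and 1969 in HSC plates 1, 2 and 3. Of the markers that define the sort, Kit had 52.6 to 126 FPKM in the plates, Cd34 had 66.5 and 86.8 FPKM in MPP1 plates 1 and 2 against 33.1 and 37.1 FPKM in HSC plates 1 and 2, and Cd34 RNA was thus present in cells sorted as CD34-. Of the marker lists of other cell types, the summed level over a list was 0 to 0.103 FPKM in the plates for B cells, 0 to 0.135 FPKM for macrophages, 0 to 9.81 FPKM for neutrophils and 6.74 to 27.1 FPKM for erythroid cells. For T and NK cells it was 34.8 FPKM in bled HSC, 0.632 FPKM in bled MPP1 and 0 in the 5 other plates. Pf4, a megakaryocyte gene, had 138 to 230 FPKM in MPP1 plates 1 and 2 against 12.3 and 38.5 FPKM in HSC plates 1 and 2.

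The start regions of 3 members are shown because the comparisons between plates turn on these genes: Psmb5 and Psmb6 had the smallest p between bled and normal plates, and Psmd12 and Psmb6 the smallest p between MPP1 and HSC. They were chosen after these values were seen. Each window runs from 250 bases before to 50 bases after the gene's start, 5′ to 3′ on the gene's strand, from RefSeq on GRCm38.p6. The authors' own build was mm9, so these coordinates do not apply to their tables. Psmb5 lies on the minus strand at chr14:54617946-54618245, Psmb6 on the plus strand at chr11:70525107-70525406 and Psmd12 on the plus strand at chr11:107479278-107479577. Capitals mark TGACNNNGC on either strand, the core of the antioxidant response element, through which the factor Nfe2l1 is known to raise proteasome genes when the proteasome is inhibited.
Psmb5: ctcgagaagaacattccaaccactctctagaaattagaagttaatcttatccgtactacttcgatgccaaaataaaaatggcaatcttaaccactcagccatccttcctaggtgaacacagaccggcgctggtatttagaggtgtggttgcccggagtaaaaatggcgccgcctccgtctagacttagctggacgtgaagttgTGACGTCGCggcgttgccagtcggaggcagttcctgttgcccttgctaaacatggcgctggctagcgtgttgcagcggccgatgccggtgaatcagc
Psmb6: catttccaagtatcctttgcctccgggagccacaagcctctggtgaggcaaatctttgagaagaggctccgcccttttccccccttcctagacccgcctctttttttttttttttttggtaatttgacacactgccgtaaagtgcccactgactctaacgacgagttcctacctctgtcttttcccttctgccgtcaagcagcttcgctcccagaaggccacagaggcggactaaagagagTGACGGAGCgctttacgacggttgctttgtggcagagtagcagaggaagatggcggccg
Psmd12: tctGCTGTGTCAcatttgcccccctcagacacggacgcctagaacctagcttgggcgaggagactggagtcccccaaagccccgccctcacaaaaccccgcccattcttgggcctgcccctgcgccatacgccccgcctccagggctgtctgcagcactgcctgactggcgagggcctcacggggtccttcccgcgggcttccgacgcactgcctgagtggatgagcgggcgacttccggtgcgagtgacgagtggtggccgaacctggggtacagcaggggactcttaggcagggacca
Each of the 3 windows held 1 match, which began 47 bases before the start in Psmb5, 9 bases before it in Psmb6 and 247 bases before it in Psmd12. In Psmd12 it lay on the opposite strand. Of the 37 members, 30 had a window in the table, and 5 of these held the motif: Psmb5, Psmb6, Psmc6, Psmd9 and Psmd12. Of all 32851 windows, 12.4% held it, a share near that of the members. The 7 members without a window were Psma8, Psmb1, Psmb2, Psmb7, Psmc3, Psmd3 and Psmd7. The ETS-type motif CCGGAAG stood in 11 of the 30 members, against 8.86% of all windows. Of these 11, 10 were regulatory by name, among them Psmc3ip, which is no proteasome subunit. GGGCGG, the letters of a GC box, stood in 18 of the 30 and in 35.7% of all windows, and CCAAT in 13 of the 30 and in 37.4% of all windows. Both strands were searched, and CCGGAAG and the other motifs do not contain each other. A match is a string of letters and was not tested as a binding site.

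**Figure D1:**
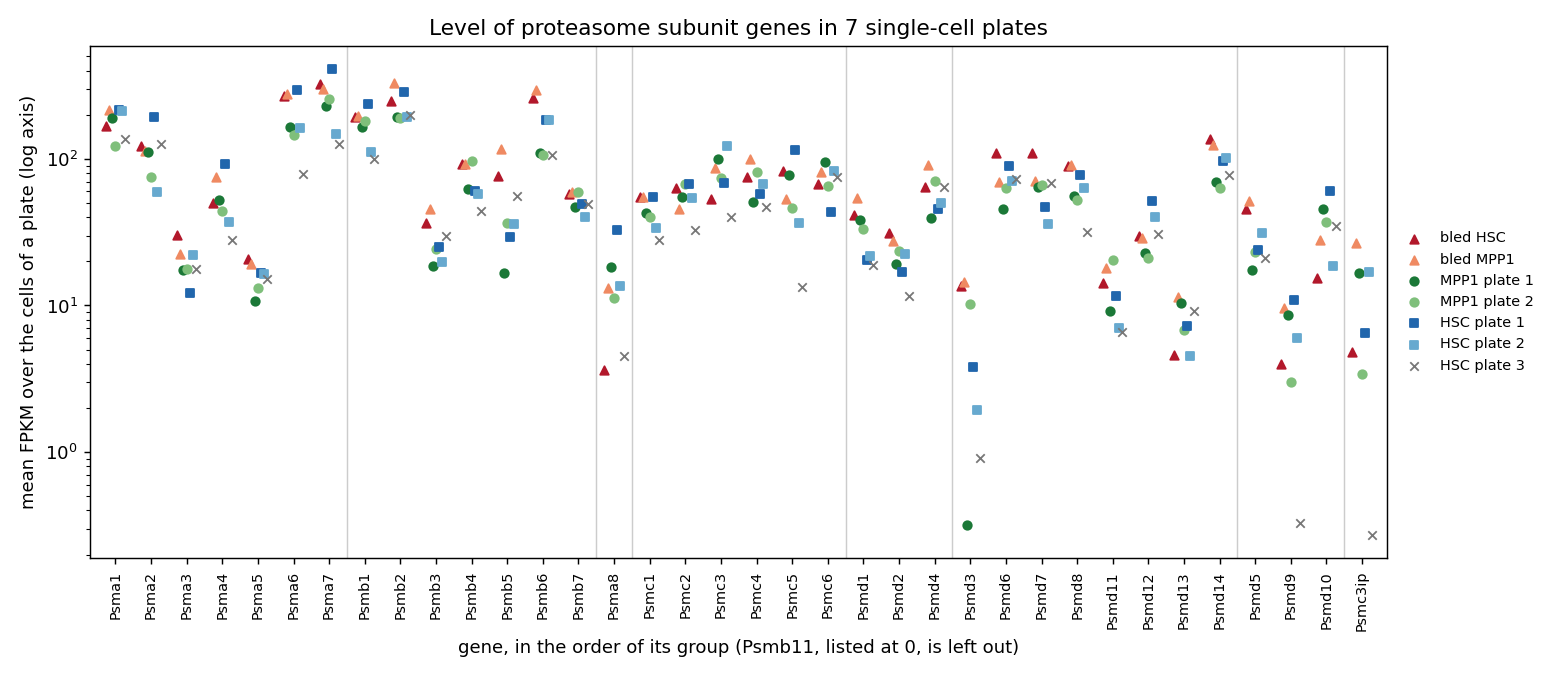
Mean FPKM over the cells of a plate (log axis) for 36 genes, in the order alpha ring, beta ring, tissue-specific core, ATPase ring, base, lid, chaperones and name match, with grey lines between these groups. Triangles are bled plates, circles MPP1, squares HSC plates 1 and 2, and crosses HSC plate 3; Psma7, Psmb2 and Psma6 stand highest, and Psmd3, Psmd9 and Psmc3ip spread most between plates.

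Subunit RNAs were abundant but far from equal. FPKM is scaled to transcript length, but the bulk libraries ordered these genes differently, so the order given here is that of the single-cell plates alone. Levels ran over the 7 plates from a mean of 256 FPKM for Psma7 to 6.07 FPKM for Psmd9, with Psmb11 listed at 0 in every plate. Of the 10 highest members, 7 were core subunits, and 30 of 37 members were at FPKM 10 or more in each of the 7 plates. In each plate, 5.41% to 10.6% of the genes whose mean reached FPKM 1 stood at or above the median core subunit.

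In the alpha ring, which gates the barrel, Psma7 was the highest in 5 of 7 plates. It had 324 FPKM in bled HSC and 301 FPKM in bled MPP1, 229 and 257 FPKM in MPP1 plates 1 and 2, and 409, 147 and 126 FPKM in HSC plates 1, 2 and 3. The 3 HSC plates spanned the values of all other plates. Psma5 was the lowest in 6 of 7 plates, with 10.7 to 20.7 FPKM. Psma3, the lowest in HSC plate 1, had 12.2 to 30.4 FPKM over the plates although it was detected in 56.0% to 90.0% of the cells of a plate.

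In the beta ring, Psmb2 (no protease site) was the highest in 6 of 7 plates, with 189 to 331 FPKM. Of the protease subunits, Psmb6 had 106 to 294 FPKM, Psmb5 16.7 to 116 FPKM and Psmb7 40.2 to 59.8 FPKM, so that Psmb6 stood above Psmb5 and Psmb7 in each of the 7 plates. The lowest was Psmb3 with 18.5 to 45.9 FPKM in 6 plates, and Psmb5 in MPP1 plate 1. All 3 protease subunits were detected together, at FPKM 1 or more, in 25.0% of the bled HSC and 42.0% of the bled MPP1 cells, in 15.7% and 18.8% of the cells of MPP1 plates 1 and 2, and in 14.0%, 18.9% and 6.85% of cells from HSC plates 1, 2 and 3. All 14 constitutive core subunits were detected in 14 of 50 bled MPP1 cells (28.0%, exact Clopper-Pearson 95% interval 16.2% to 42.5%, counting error only), and in 0 to 4 cells of each other plate. The bled MPP1 plate was the one with most genes per cell.

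In the regulatory particle, the median of the 6 members of the ATPase ring was 60.6 to 68.0 FPKM in the 6 plates other than HSC plate 3, and 36.4 FPKM in HSC plate 3. Psmc3 was the highest on average, with 40.1 to 123 FPKM, and Psmc1 the lowest, with 28.2 to 55.3 FPKM. In the base, the scaffold subunit Psmd2 had 11.6 to 31.1 FPKM and the ubiquitin receptor Psmd4 39.8 to 90.2 FPKM. The single-cell tables list Psmd2 under another RefSeq transcript than the bulk table does, 1 of the non-coding class, so its levels cannot be compared across these tables. In the lid, the deubiquitinase Psmd14 had 63.7 to 137 FPKM and was the highest member in 6 of 7 plates, while the scaffold subunits Psmd13 (4.50 to 11.4 FPKM) and Psmd3 (0.318 to 14.5 FPKM) were the lowest. Among the chaperones Psmd9 was the lowest in all 7 plates, with 0.326 to 10.9 FPKM. Of the members that the name alone brought in, Psma8 had 3.63 to 32.9 FPKM and Psmc3ip 0.273 to 26.9 FPKM.

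A subunit RNA was seen in only some cells, as is usual for single-cell libraries. The share of cells at FPKM 1 or more, averaged over subunits, was 60.0% for core and 41.6% for regulatory members in bled HSC, and 71.5% and 57.9% in bled MPP1. For core and regulatory members it was 55.6% and 41.7% in MPP1 plate 1, and 62.5% and 43.8% in MPP1 plate 2. It was 54.2% and 34.6% in HSC plate 1, 60.7% and 46.4% in HSC plate 2, and 41.5% and 26.0% in HSC plate 3. The core share was the higher in 7 of 7 plates, and the core level was higher too. Genes of any kind within the level range of the middle 50% of core members had a median share of 35.6% to 68.0%, and those within that of regulatory members 23.3% to 54.0%. The shares of the members above are means. Their median share was 44.5% to 80.0% for core and 30.1% to 64.0% for regulatory members. In each plate both medians were above that of the genes in the same level range. No test was made.

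Psmb1, a structural beta subunit, was the member seen in most cells: 306 of 373, or 82.0%, against 29 of 150 no-cell wells, or 19.3%. Psma7 followed with 80.2% of cells against 22.0% of no-cell wells. Among the protease subunits, Psmb6 was detected in 70.0%, Psmb5 in 48.0% and Psmb7 in 41.0% of cells, against 14.0%, 10.7% and 7.33% of no-cell wells. No-cell wells showed a median of 147.5 to 841 genes per plate, against 1969 to 3046.5 genes in cells. For 35 members the share was higher in cells than in no-cell wells in 7 of 7 plates. Psmd2 was the exception with a share above 0: in HSC plate 3 it was detected in 45.2% of cells and 45.5% of no-cell wells, and in bled MPP1 in 78.0% of cells and 58.6% of no-cell wells. Its detection in HSC plate 3 is therefore at background. For 5 members the mean over all 150 no-cell wells was above that over the 373 cells. In cells and no-cell wells these were 21.0 and 72.6 FPKM for Psmd2, 31.6 and 99.8 FPKM for Psmd1, 28.5 and 84.2 FPKM for Psmb3, 43.2 and 57.4 FPKM for Psmc1, and 19.9 and 27.3 FPKM for Psma3. Each of these 5 was detected in a smaller share of no-cell wells than of cells. FPKM is relative to the size of each library, so these means do not give amounts of RNA. Psma8 was detected in 35 of 373 cells (9.38%) and 3 of 150 no-cell wells (2.00%). Psmb11 was detected in neither.

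**Figure D2:**
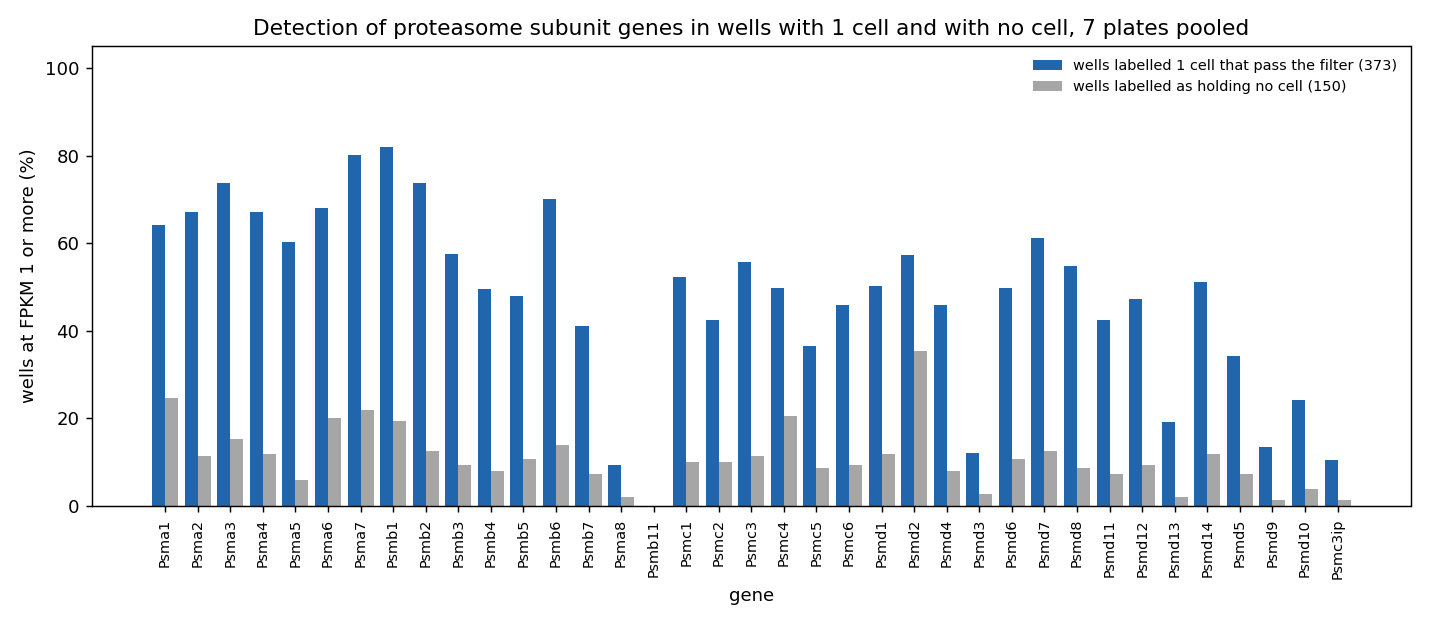
Share of wells in which a gene reached FPKM 1, in percent, for the 37 genes in 373 wells with 1 cell (blue) and 150 wells with no cell (grey), over 7 plates pooled. Psmb1 reached 82.0% of cells against 19.3% of no-cell wells, and Psmd2 57.4% against 35.3%, the highest share of no-cell wells.

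How many members a cell showed followed how many genes it showed at all. The median was 18 members in bled HSC and 24 in bled MPP1 cells, 17 and 19 in MPP1 plates 1 and 2, and 15, 20 and 12 in HSC plates 1, 2 and 3. Within a plate, Spearman's rho between the members and the genes detected per cell was 0.76 to 0.94 (48 to 73 cells, which share the depth of their well). Between the core and the regulatory members detected per cell it was 0.51 to 0.81. When core and regulatory RNA were each taken as a share of the cell's total FPKM, rho was -0.15 to 0.39. Core RNA made up a median of 0.46% to 0.76% of a cell's total FPKM and regulatory RNA 0.24% to 0.38%.

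Core stood above regulatory in every single-cell plate. The median log2(mean FPKM + 1) over core members minus that over regulatory members was 0.65 in bled HSC and 0.92 in bled MPP1, 0.41 and 0.72 in MPP1 plates 1 and 2, and 0.67, 0.40 and 0.75 in HSC plates 1, 2 and 3. The sign was thus the same in 7 of 7 plates, and no test was made because the members were chosen by name with earlier results known. With the mean of log2 values over cells in place of the log2 of the mean, the median over plates was 1.10 in place of 0.67. In cells with at least 2000 genes it was 0.45, with 0.06 in MPP1 plate 1. Without the chaperones, the tissue-specific members and Psmc3ip it was 0.53 to 1.33 over the plates, with a median of 0.85.

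No proteasome gene passed the test between MPP1 and HSC. Of 36 members tested, 0 were past an adjusted p of 0.05 in limma with Benjamini-Hochberg adjustment over 9833 genes, of which 0.0102% were called higher and 0.0% lower. At an unadjusted p under 0.05 there were again 0 members, against 2.56% of all genes higher and 4.22% lower. The median log2 difference, MPP1 minus HSC, was -0.08 over the members, -0.28 over core and 0.03 over regulatory members, and -0.04 over all genes. The median over members was -0.36 without HSC plate 2 and 0.16 when HSC plate 3 was added, so its sign depended on which HSC plates entered.

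The members with the smallest p were lower in MPP1. Psmd12, a lid scaffold subunit, had 22.8 and 21.1 FPKM in MPP1 plates 1 and 2 against 51.5 and 40.2 FPKM in HSC plates 1 and 2, with a log2 difference of -1.02 ± 0.55 (SE, n = 2 plates each, limma, adjusted p = 0.78). Psmb6 had 110 and 106 FPKM in MPP1 against 184 and 183 FPKM in HSC, with a log2 difference of -0.76 ± 0.42 (limma, adjusted p = 0.782). In both genes the MPP1 and HSC plates did not overlap, but HSC plate 3, at 30.7 FPKM for Psmd12 and 107 FPKM for Psmb6, lay between the groups or beside the MPP1 plates. On the other side, Psmd7, the partner of the deubiquitinase in the lid, had 64.7 and 66.6 FPKM in MPP1 against 46.8 and 36.2 FPKM in HSC (log2 difference 0.66 ± 0.50, limma, adjusted p = 0.857), while HSC plate 3 had 68.5 FPKM. Psmd1, a base scaffold subunit, had 38.0 and 33.5 FPKM in MPP1 against 20.5 and 21.7 FPKM in HSC (log2 difference 0.73 ± 0.57, limma, adjusted p = 0.857). In MPP1 plate 2 the mean over no-cell wells was 25.1 FPKM for Psmd12 and 120 FPKM for Psmd7, above that of its cells. In HSC plate 1 it was 655 FPKM for Psmd1, again above the cells, with detection in 5 of 21 no-cell wells. In MPP1 plate 2 detection was in 3 of 13 no-cell wells for Psmd12 and 4 of 13 for Psmd7, so these means rest on few wells. For Psmb6 the no-cell wells were below the cells in each MPP1 and HSC plate. The part of such background in these differences was not tested.

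Both MPP1 plates lay above both HSC plates in 3 members (Psmd7, Psmb4 and Psmd1), against 15.8% of all genes tested. They lay below in 8 members (Psmd6, Psmd14, Psmd5, Psmb6, Psma1, Psmd12, Psmd8 and Psma5), against 19.9% of all genes. As a share of the 36 members these counts are near or below the background. The share of cells at FPKM 1, tested on the arcsine square root scale, gave 0 members at an adjusted p under 0.05, against 0.0% of 9014 genes in either direction, and 0 at an unadjusted p under 0.05, against 4.29% higher and 2.93% lower. The nearest was Psmd7, detected in 65.9% ± 10.0 of cells in MPP1 and 53.1% ± 12.9 in HSC (SD, n = 2 plates each, limma, adjusted p = 0.817).

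Most subunit RNAs had a higher fitted level in the plates from bled mice, but no gene passed the adjusted threshold. Of 36 members, 0 were past an adjusted p of 0.05 in limma (Benjamini-Hochberg over 10017 genes, 0.0% of which were called in either direction). At an unadjusted p under 0.05, 4 were higher, against 3.39% of all genes, and 0 lower, against 2.46%. The difference, bled minus normal with cell type as a covariate, was above 0 in 30 of 36 members, with a median of 0.42 on the log2 scale, against 50.5% of all genes and a median of 0.01. It was above 0 in 14 of 15 core members (median 0.43) and 16 of 21 regulatory members (median 0.41). The members at an unadjusted p under 0.05 numbered 2 without the bled HSC plate (3.97% of all genes), without the bled MPP1 plate (6.52%) or without MPP1 plate 1 (5.82%). All bled cells stand on 1 plate per cell type and in a table made apart from that of the normal plates, so that bleeding, plate and table cannot be told apart.

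Psmb5, the chymotrypsin-like protease subunit, had the smallest p of the members. Its level was 76.7 FPKM in bled HSC and 116 FPKM in bled MPP1, against 16.7 and 36.3 FPKM in MPP1 plates 1 and 2 and 29.3 and 35.7 FPKM in HSC plates 1 and 2. The bled and normal plates did not overlap, and HSC plate 3, at 55.7 FPKM, lay between them. The log2 difference was 1.70 ± 0.48 (SE, 2 bled and 4 normal plates, limma, unadjusted p = 0.00337, adjusted p = 0.704). It was detected in 58.3% of bled HSC cells (exact interval 43.2% to 72.4%) and 72.0% of bled MPP1 cells (57.5% to 83.8%), against 35.3% and 47.9% in MPP1 plates 1 and 2 and 46.0% and 43.4% in HSC plates 1 and 2. In no-cell wells it was detected in 16.7% of bled HSC and 17.2% of bled MPP1 wells, against 0 to 15.4% in the normal plates and HSC plate 3. The mean over no-cell wells of the bled HSC plate was 101 FPKM, above the 76.7 FPKM of its cells, and it was 27.3 FPKM in those of bled MPP1 and 0 to 14.1 FPKM elsewhere. The part of such background in the difference was not tested.

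Psmb6, the caspase-like subunit, had 259 FPKM in bled HSC and 294 FPKM in bled MPP1, against 110 and 106 FPKM in MPP1 plates 1 and 2 and 184 and 183 FPKM in HSC plates 1 and 2. Here too the groups did not overlap, with HSC plate 3 at 107 FPKM among the normal plates. The log2 difference was 0.97 ± 0.35 (limma, unadjusted p = 0.0147, adjusted p = 0.797). Psmd3, the low lid subunit, had 13.5 and 14.5 FPKM in bled HSC and bled MPP1, against 0.318 and 10.3 FPKM in MPP1 plates 1 and 2 and 3.81 and 1.94 FPKM in HSC plates 1 and 2 (log2 difference 1.98 ± 0.88, limma, adjusted p = 0.83). MPP1 plate 2 came close to the bled plates. Psmd5, a chaperone of the base, had 45.8 and 51.3 FPKM in bled HSC and bled MPP1, against 17.6 and 23.0 FPKM in MPP1 plates 1 and 2 and 24.0 and 31.1 FPKM in HSC plates 1 and 2 (log2 difference 1.02 ± 0.47, limma, adjusted p = 0.841). The third protease subunit, Psmb7, had 57.9 and 59.8 FPKM in bled HSC and bled MPP1, against 47.2 and 59.7 FPKM in MPP1 plates 1 and 2 and 49.0 and 40.2 FPKM in HSC plates 1 and 2. MPP1 plate 2 thus reached bled HSC and came close to bled MPP1, and the log2 difference was 0.27 ± 0.41 (limma, adjusted p = 0.957).

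Of the members with a fitted level lower in bled plates, none was at an unadjusted p under 0.05. Psma8, the testis subunit, had 3.63 and 13.3 FPKM in bled HSC and bled MPP1, against 18.3 and 11.3 FPKM in MPP1 plates 1 and 2 and 32.9 and 13.7 FPKM in HSC plates 1 and 2 (log2 difference -1.19, limma, unadjusted p = 0.0999). Bled MPP1 lay within the range of the normal plates. Psmd10, a chaperone of the base, had 15.5 and 28.1 FPKM in bled HSC and bled MPP1, against 45.5 and 36.9 FPKM in MPP1 and 60.2 and 18.7 FPKM in HSC (log2 difference -0.80, limma, unadjusted p = 0.159). HSC plate 2 lay between the bled plates. On the higher side Psmd14, the deubiquitinase, came next after the 4 members named first, with 137 and 125 FPKM in bled HSC and bled MPP1, against 69.0 and 63.7 FPKM in MPP1 and 97.3 and 101 FPKM in HSC (log2 difference 0.69, limma, unadjusted p = 0.0808).

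**Figure D3:**
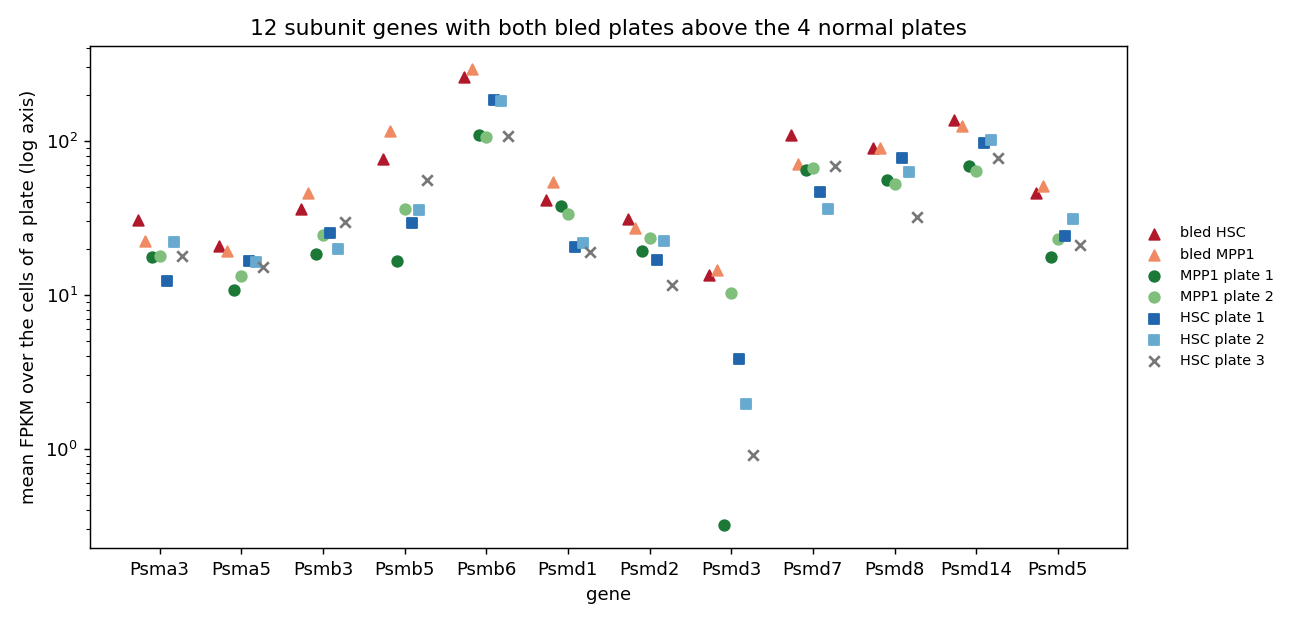
Mean FPKM over the cells of a plate (log axis) for the 12 genes in which the bled HSC and bled MPP1 plates (triangles) both stood above MPP1 plates 1 and 2 (circles) and HSC plates 1 and 2 (squares), with HSC plate 3 as crosses. Psmb5 had 76.7 and 116 FPKM in the bled plates against 16.7 to 36.3 FPKM in the 4 normal plates, and Psma3 the narrowest gap, with 22.3 FPKM in bled MPP1 against 22.2 FPKM in HSC plate 2.

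Both bled plates stood above all 4 normal plates in 12 of 36 members, or Psma3, Psma5, Psmb3, Psmb5, Psmb6, Psmd1, Psmd2, Psmd3, Psmd7, Psmd8, Psmd14 and Psmd5, against 7.94% of all 10017 genes. They stood below in 0 members, against 6.52% of all genes. In all 12 the bled plates were also above HSC plate 3. In 4 of the 12 the mean FPKM over the no-cell wells of a bled plate was above that over its cells. FPKM is relative to the size of each library, so this does not give the amount of RNA in a well. Psmb3 was detected in 4 of 36 no-cell wells and 29 of 48 cells of bled HSC. In bled HSC, cells and no-cell wells had 36.3 and 328 FPKM of Psmb3, 31.1 and 120 FPKM of Psmd2, and the values of Psmb5 given above. In bled MPP1 they had 27.3 and 142 FPKM of Psmd2 and 22.3 and 90.5 FPKM of Psma3. The part of this background in the count was not tested. Where genes had to average FPKM 10 or more, it was 11 of 33 members against 9.88% of genes, and 0 below against 6.19%. Cells of the bled MPP1 plate showed the most genes, so the count was repeated in cells with 2000 to 3000 genes, 18 to 34 per plate, a range set after the data were seen. There 6 members remained above (Psma3, Psma5, Psmb3, Psmb5, Psmb6 and Psmd3), against 7.05% of all genes, and Psmc3 stood below, against 7.35%. The median log2 difference of the members was 0.17 in these cells, and 2 members were at an unadjusted p under 0.05, against 5.62% of all genes.

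In cells of 2000 to 3000 genes Psmb5 had 84.9 FPKM in bled HSC and 95.5 FPKM in bled MPP1, against 10.5 and 46.5 FPKM in MPP1 plates 1 and 2 and 22.2 and 28.2 FPKM in HSC plates 1 and 2. The gap to the normal plates remained. Psmd5 had 31.2 and 17.5 FPKM in bled HSC and bled MPP1 there, against 21.2 and 18.9 FPKM in MPP1 and 38.9 and 24.0 FPKM in HSC, so its groups overlapped. By the share of cells, the bled plates stood above all 4 normal plates in 6 of 36 members (Psma3, Psma6, Psma7, Psmb5, Psmb7 and Psmc1), against 9.63% of all genes, and below in 0, against 2.98%. In cells of 2000 to 3000 genes this held above for Psmb5 alone among the members, against 7.53% of all genes, and below for Psmd10, against 6.26%. Marker genes moved as well: Cd3d of T cells had 30.7 FPKM in bled HSC, 0.632 FPKM in bled MPP1 and was listed at 0 in the 5 other plates, and the summed megakaryocyte markers were 9.90 and 141 FPKM in bled HSC and bled MPP1, against 232 and 162 FPKM in MPP1 and 14.8 and 41.0 FPKM in HSC. Their part in the differences was not tested.

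Over all cells, most members had a higher level in the bled plate of either cell type. In MPP1 this held for fewer members in cells of like gene number. Bled HSC minus the mean of HSC plates 1 and 2 was above 0 in 27 of 36 members (median log2 difference 0.34, over all genes -0.03). Bled MPP1 minus the mean of MPP1 plates 1 and 2 was above 0 in 32 of 36 members (median 0.39, over all genes 0.06). Bled MPP1 cells showed the most genes, and in cells of 2000 to 3000 genes bled MPP1 was above in 21 of 36 members (median 0.23, over all genes -0.09). These were 12 of 15 core members (median 0.57) and 9 of 21 regulatory members (median -0.39). There Psmc5 had 3.19 FPKM in bled MPP1, against 107 and 71.8 FPKM in MPP1 plates 1 and 2. Bled HSC was above in 26 of 36 members in such cells (median 0.16, over all genes 0.0032). Over all cells these differences were 1.22 for HSC and 2.19 for MPP1 in Psmb5, and 0.50 and 1.44 in Psmb6. The test of the difference between them gave 0 members at an adjusted p under 0.05, against 0.0% of all genes. There were also 0 with an unadjusted p below 0.05, against 3.17% higher and 1.93% lower. For Psmb6 the difference between them was 0.94 on the log2 scale. Each bled cell type has 1 plate, so the spread in this fit came from the normal plates alone.

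Other genes of the pathway were taken from lists of 31 genes, of which 29 could be tested. Between bled and normal plates 18 of the 29 were higher and 11 lower, with a median log2 difference of 0.20 and 0 past the adjusted threshold in limma. Of all genes 50.5% were higher, with a median of 0.01. At an unadjusted p under 0.05, 1 of the 29 was higher and 1 lower, against 3.39% and 2.46% of all genes. At an unadjusted p under 0.05, Psmg1, a chaperone of the alpha ring, was higher: 26.0 and 19.5 FPKM in bled HSC and bled MPP1, against 6.64 and 11.0 FPKM in MPP1 plates 1 and 2 and 5.62 and 1.00 FPKM in HSC plates 1 and 2 (limma, adjusted p = 0.801). HSC plate 3, at 16.6 FPKM, lay just under the bled plates. Ubqln1, a shuttle of ubiquitin-tagged proteins, was lower at an unadjusted p under 0.05: 3.29 and 2.50 FPKM in bled HSC and bled MPP1, against 11.0 and 21.5 FPKM in MPP1 and 11.4 and 7.22 FPKM in HSC (limma, adjusted p = 0.807). The inducible subunits had differences above 0 in 3 of 3, with 140 and 234 FPKM of Psmb8 in bled HSC and bled MPP1 against 123 and 134 FPKM in MPP1 and 156 and 137 FPKM in HSC, where the groups overlapped. Nfe2l1 had 5.87 and 3.34 FPKM in bled HSC and bled MPP1, against 5.41 and 2.34 FPKM in MPP1 and 7.04 and 11.6 FPKM in HSC.

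Between MPP1 and HSC, 14 of the 29 genes of these lists were higher and 15 lower, with 0 past the adjusted threshold in limma. Of all genes 48.4% were higher. At an unadjusted p under 0.05, 1 of the 29 was higher and 1 lower, against 2.56% and 4.22% of all genes. At an unadjusted p under 0.05, Uba1, the enzyme that activates ubiquitin, was higher with 62.3 and 106 FPKM in MPP1 plates 1 and 2 against 38.5 and 33.4 FPKM in HSC plates 1 and 2 (log2 difference 1.16 ± 0.51, limma, adjusted p = 0.721). Psmb9, an inducible protease subunit, was lower with 68.8 and 27.3 FPKM in MPP1 against 95.7 and 108 FPKM in HSC (log2 difference -1.21 ± 0.54, limma, adjusted p = 0.721). By share of cells, Vcp, an unfoldase, was detected in 90.0% of MPP1 against 75.7% of HSC cells and the ubiquitin receptor Adrm1 in 39.7% against 21.3% (means of 2 plates each). Psmg3, a chaperone of core assembly, was detected in 10.0% of MPP1 against 26.0% of HSC cells. These 3 passed an unadjusted p under 0.05 and not the adjusted one. By share, 2 of the 29 genes were higher and 2 lower at that p, against 4.29% and 2.93% of all genes. The other lower gene is on the list of ubiquitin genes.

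In the bulk libraries the median over the members was highest in GMP-7, ProEry and GMP-11, and lowest in HSC, CLP Sca1 high and Mature Meg. With 1 library per population there is no replicate check, and in bulk fewer cells of a type and less RNA per cell cannot be told apart. The median over the 35 members was 7.41 FPKM in GMP-7, 6.57 in ProEry and 6.42 in GMP-11. It was 4.08 in CMP, 3.74 in CFU-E, 3.57 in MEP, 3.54 in PreCFU-E, 2.33 in preGM, 2.29 in MPP4 and 2.04 in MPP2. It was 1.78 in MKP, 1.71 in MPP1, 1.46 in preMegE, 1.40 in CLP, 1.28 in MPP3, 0.892 in HSC, 0.837 in CLP Sca1 high and 0.0799 in Mature Meg. The order followed the number of genes seen: 6080 genes reached FPKM 1 in GMP-7, 2866 in HSC and 1642 in Mature Meg, and Spearman's rho between this number and the members' median was 0.85 over the 18 libraries, which share their table and whose depth is unknown.

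**Figure D4:**
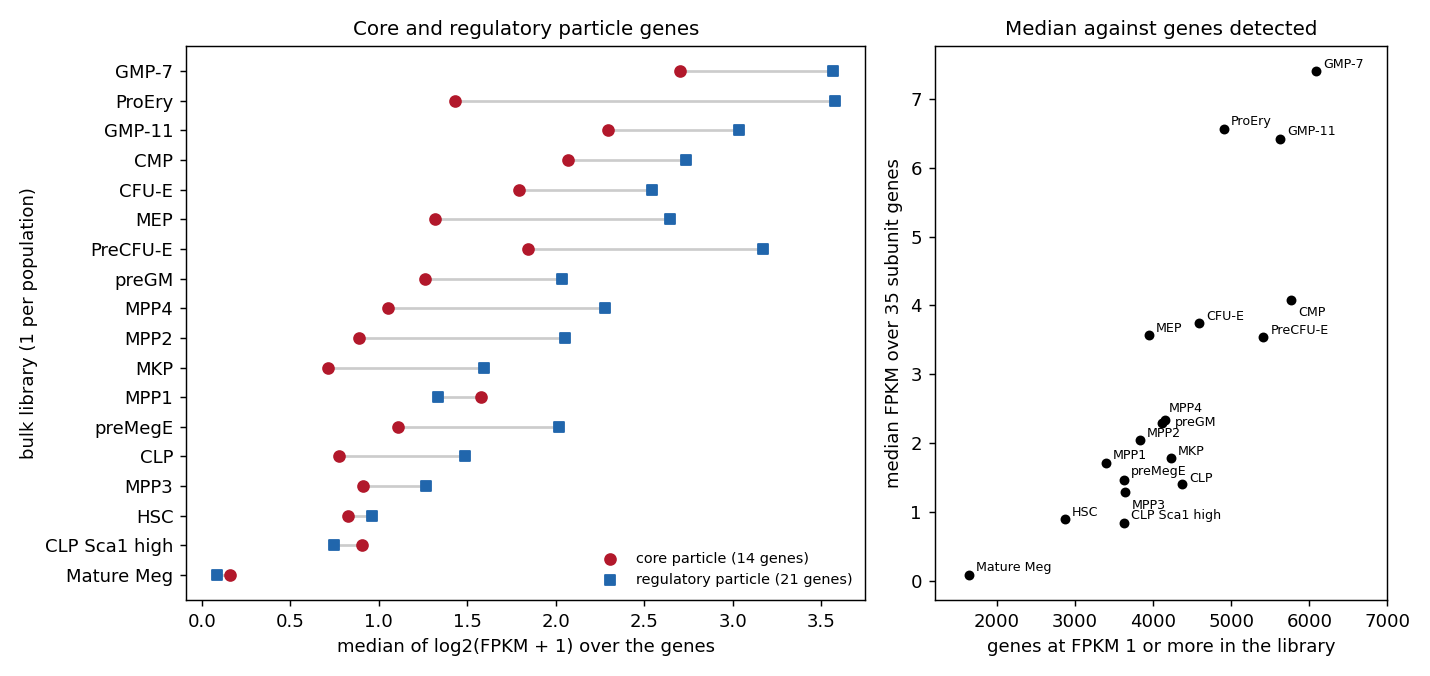
Left, the median log2(FPKM + 1) of core particle genes (red circles) and regulatory particle genes (blue squares) in the 18 bulk libraries, ordered by the median over all 35 genes. Right, that median in FPKM against the number of genes at FPKM 1 or more in the library: GMP-7 has 7.41 FPKM and 6080 genes, Mature Meg 0.0799 FPKM and 1642 genes.

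Set against the median of the other 17 libraries, 17 of 30 members were higher by a fold of 2 or more in GMP-7, against 60.2% of all genes, 16 of 30 in GMP-11, against 56.4%, and 15 of 30 in ProEry, against 49.8%. In ProEry the median log2 difference was 0.45 for core and 1.71 for regulatory members. In the low libraries, 14 of 28 members were lower in HSC, against 47.1%, 13 of 28 in CLP Sca1 high, against 35.6%, and 22 of 28 in Mature Meg, against 69.0%. In GMP-7, GMP-11, ProEry and HSC the share of the members was near that of all genes. The summed FPKM of the members was 0.372% of the total in ProEry, 0.281% in HSC, 0.275% in GMP-7 and 0.123% in GMP-11. The sum thus did not keep the order of the medians.

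Single subunits did not keep to this order. Psmb7 had the widest range: 462 FPKM in HSC, 309 in MPP1, 298 in MPP2, 220 in CLP and 216 in ProEry, 16.2 in preGM, 4.99 in CLP Sca1 high and 0.128 in Mature Meg, with a median of 80.6 FPKM over the 18 libraries. In bulk HSC, where the median member stood at 0.892 FPKM, this trypsin-like subunit thus had its highest value. Psmd5 ranged from 0.0219 FPKM in Mature Meg to 83.8 FPKM in ProEry and Psmd4 from 0.0799 FPKM in Mature Meg to 79.2 FPKM in GMP-7. The narrowest ranges among the 28 members at FPKM 1 in 9 or more libraries were those of Psmc4 (0 to 3.71 FPKM), Psma2 (0.0658 to 4.28 FPKM) and Psma4 (0 to 5.57 FPKM). Only Psma6, Psmd1 and Psmd6 reached FPKM 1 in all 18 libraries. The highest library was GMP-7 for 10 members, ProEry for 6 and GMP-11 for 4, and 12 members were listed at 0 in Mature Meg. Psmd6 is the counter-example in that library, with 76.6 FPKM.

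For pairs of related populations, a gene was counted when it reached FPKM 1 in a library of the pair and log2(FPKM + 1) differed by a fold of 2 or more. A gene at FPKM 1 in 1 library only enters through that library, so these counts describe the pair and support nothing further. In GMP-7 over preGM, 20 of 30 members were higher and 1 lower, against 50.2% and 16.6% of all genes; Psmd4 had 79.2 FPKM in GMP-7 and 3.98 FPKM in preGM. In CFU-E over preMegE, 15 of 30 were higher and 1 lower, against 48.8% and 24.1%; Psmd1 had 51.0 FPKM in CFU-E and 1.46 FPKM in preMegE. In ProEry over CFU-E, 9 of 30 were higher and 4 lower, against 34.3% and 28.2%. In CLP over MPP4, 4 of 25 were higher and 10 lower, against 35.8% and 33.1%; Psmd13 had 1.48 FPKM in CLP and 8.17 FPKM in MPP4. In Mature Meg over MKP, 2 of 20 were higher and 15 lower, against 15.3% and 73.1%; Psmd7 was listed at 0 in Mature Meg and had 53.8 FPKM in MKP.

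In bulk MPP1 over bulk HSC, 12 of 24 members were higher and 3 lower, against 43.0% and 29.8% of all genes. Psmd3 had 19.8 FPKM in bulk MPP1 and 0.602 FPKM in bulk HSC, and Psmb5 11.3 and 0.0743 FPKM. Psmd5, at 1.53 FPKM in bulk MPP1 and 23.3 FPKM in bulk HSC, went the other way. In the single-cell plates, which were normalised apart, the log2 difference of Psmb5, MPP1 minus HSC, was -0.38 ± 0.60 (SE, n = 2 plates each, limma, adjusted p = 0.944).

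The order of core and regulatory particle turned round in bulk. The median log2(FPKM + 1) of core minus that of regulatory members was below 0 in 15 of 18 libraries, from -2.15 in ProEry to 0.24 in MPP1, with a median of -0.76, where the 7 single-cell plates had 0.40 to 0.92. Without the chaperones, the tissue-specific members and Psmc3ip 15 of 18 were again below 0, with a median of -0.92. The libraries above 0 over all members were MPP1 (0.24), CLP Sca1 high (0.16) and Mature Meg (0.07). Core and regulatory medians were both under FPKM 1 in CLP Sca1 high (0.878 and 0.681 FPKM) and Mature Meg (0.115 and 0.0619 FPKM). The same held in HSC (0.775 and 0.946 FPKM). With the mean over subunits in place of the median, CLP turned to 0.05 and Mature Meg to -0.35. Single core subunits were near 0 in bulk: Psmb3 had at most 0.25 FPKM in any of 18 libraries, Psma3 at most 1.29 FPKM and Psma7 at most 1.75 FPKM, while over the single-cell plates Psma7 had the highest mean of all members. The chaperone Psmd10 had at most 0.768 FPKM in bulk and 15.5 to 60.2 FPKM in the plates.

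Transcript length differed between the particles, and over all genes it went with the gap between assays. Median transcript length was 1162.5 bases for the 14 core members of the bulk table and 1636 bases for the 21 regulatory members. Over all genes at FPKM 10 or more in MPP1 cells, the median of bulk minus single-cell log2(FPKM + 1) was -4.28 for transcripts up to 1000 bases and -3.14 for those above 5000 bases, and in HSC it was -4.65 and -3.39. The tables were normalised apart, so only the order of genes within each can be read. For core and regulatory members at FPKM 10 or more in the cells the median was -4.43 and -3.27 in MPP1 (14 and 18 members) and -5.52 and -4.37 in HSC (14 and 17 members). Over all 21 regulatory members it was -3.07 in MPP1 and -3.66 in HSC. The median of the core members in HSC thus lay below the median of every length class, and Psmb7, with 462 FPKM in the bulk HSC library, far above it. Among the members the median did not rise steadily up to 3000 bases. In HSC it was -5.28 up to 1000 bases, -4.68 up to 1500, -5.07 up to 2000 and -4.94 up to 3000. In MPP1 it was -4.49, -4.09, -4.72 and -4.17. For the 2 members of 3000 to 5000 bases it was -1.78 in HSC and -2.15 in MPP1. In bulk HSC 6 of 14 core and 10 of 21 regulatory members reached FPKM 1. Values below that lie near the floor of the scale. The part of length in the turn of the order was not tested.

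**Figure D5:**
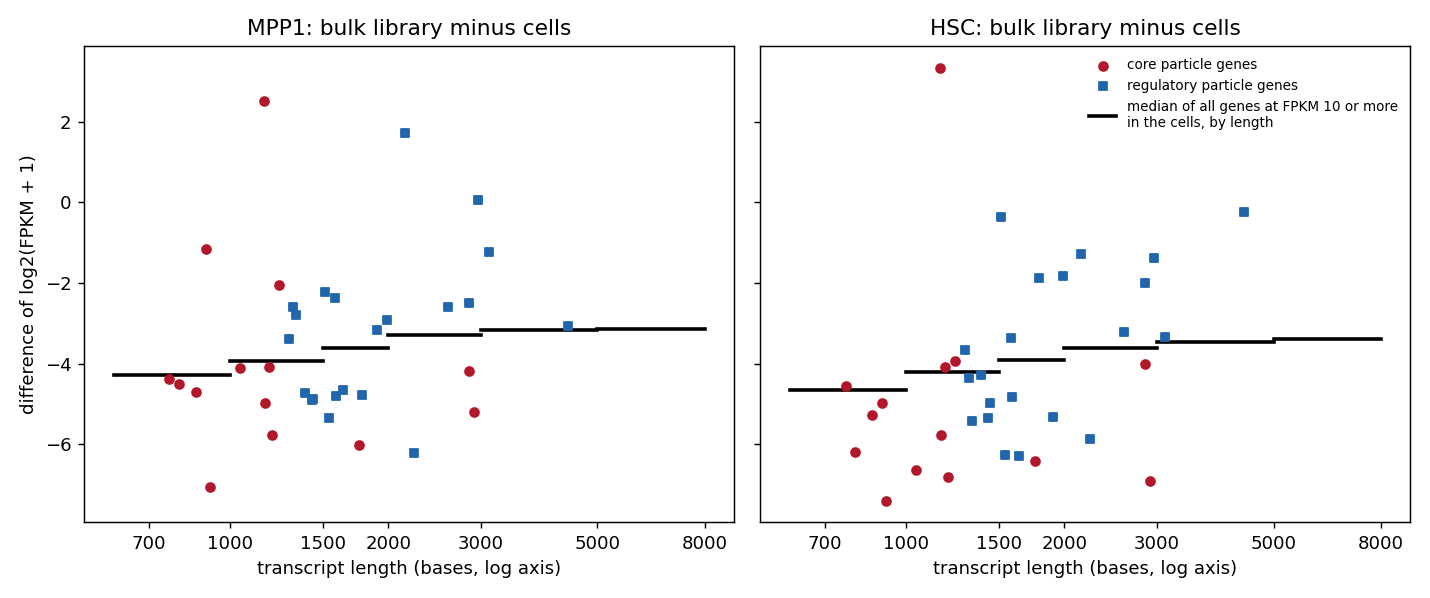
Bulk minus single-cell log2(FPKM + 1) against transcript length in bases (log axis) for core genes (red circles) and regulatory genes (blue squares), in MPP1 (left) and HSC (right; cells of plates 1 and 2). Black bars are the median over all genes at FPKM 10 or more in the cells, by length class: in HSC -4.65 up to 1000 bases and -3.39 above 5000 bases; the point above 2 in each panel is Psmb7 at 1160 bases.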

How the data were processed

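RNA was measured in 672 wells of 7 single-cell plates and in 18 bulk libraries. The authors deposited FPKM per gene, made with TopHat 1.3.3 and Cufflinks 1.2.1 on mm9, with Bowtie2 2.2.1 also named, per the submitters' processing notes. No counts were used and the depth is unknown. FPKM scales to transcript length and library size, and a listed 0 can be a failed estimate. A repeat run of HSC plate 1 (96 samples) was not used; the table's columns do not say which run they hold. The labels call the normal plates biological replicates and do not tie them to single mice, so p-values measure the spread between plates. The plate, not the cell, was the replicate.

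Wells labelled as 1 cell with at least 1000 genes at FPKM 1 were used, and the mean FPKM per plate was taken. Levels were tested as log2(mean FPKM + 1) with limma 3.58.1 (R 4.3.3) with a mean-variance trend, over all genes whose plate means averaged FPKM 1 or more, with Benjamini-Hochberg adjustment; a fold change on this scale understates that of low genes. MPP1 plates 1 and 2 were tested against HSC plates 1 and 2. Bled plates were tested against these 4 with cell type as a covariate, and then with the interaction. With 1 plate per bled cell type, the interaction took its spread from the normal plates alone. It assumed that bled plates vary like normal ones. Shares of cells were tested on the arcsine square root scale for genes with a mean share of at least 5%. The tests were first run on simulated data with known changes. These changes were larger than the differences of the members given here, so the runs do not show how often differences of that size are found. Intervals for shares are exact Clopper-Pearson intervals at 95% and cover counting error only. Transcript lengths, from a GENCODE annotation of a later build, were found for 37 of 37 members and 18333 of 18855 bulk genes. Python 3.11.15, pandas 2.3.3, numpy 2.4.6 and scipy 1.17.1 were used.

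The members and gene lists were chosen with earlier results of these data known. Full values were given to members past the adjusted threshold, up to 5 per direction with the smallest p, the protease subunits, the highest and lowest member of each subunit group, the tissue-specific members and, in bulk, the 3 widest and 3 narrowest ranges among members at FPKM 1 in 9 or more libraries. Alternatives were the pseudocount, the filters, the averaging, the scaling, the detection threshold, each plate left out and the replicate number as a block. The setting of 2000 to 3000 genes per cell, the medians over members at FPKM 10 or more in the cells, and those without chaperones, tissue-specific members and Psmc3ip were added after seeing the data. Some genes of the marker and pathway lists are not reported here by name.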

Additional observations from a re-analysis of the deposited data

How the results depend on the processing

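Of the values that answer a comparison, which are counts and medians, 178 stayed near the main value over the alternatives and 58 moved. A further set held single genes and the medians over core and over regulatory members. In that set 556 values were the same, 12 medians moved and 35 genes changed sign. A gene was the same when it kept its sign and its side of the adjusted threshold, whatever its size. The cause was not tested. No counts were used, so what depth limits is unknown, and bleeding cannot be told apart from plate and table.

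For MPP1 against HSC levels, 1 gene of all passed the adjusted threshold in limma. It was 0 with no filter, 0 in cells with 2000 to 3000 genes, 0 to 0 with a plate left out, 6 with cells rescaled to equal totals and 38 with the mean of log2 values. Members at an unadjusted p under 0.05 numbered 0 (6.78% of all genes), against 3 with no filter (5.68%), 1 with the mean of log2 values (7.89%) and 1 in cells with at least 2000 genes (6.56%). The members' median of -0.08 ran from -0.36 to 0.030 with a plate left out and was 0.16 with HSC plate 3 added. Psmd6 turned to 0.15 with the mean of log2 values, Psmb7 to -0.56 with at least 2000 genes and -0.71 with 2000 to 3000 genes, and Psmb4 to -0.19 with 2000 to 3000 genes. With a plate left out Psmb5 ran from -0.92 to 0.16 and Psmc6 from -0.066 to 0.85.

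For bled against normal levels, 4 members at an unadjusted p under 0.05 (5.85% of all genes) became 7 with no filter (5.32%), 8 with the mean of log2 values (8.41%), 2 with 2000 to 3000 genes (5.62%) and 2 to 3 with a plate left out (3.97% to 6.52%). Genes of all past the adjusted threshold numbered 0, against 6 with the mean of log2 values, 3 with 2000 to 3000 genes and 0 to 1 with a plate left out. The median of 0.42 was 0.17 with 2000 to 3000 genes. With the mean of log2 values Psmc2 turned to 0.39 and Psmd12 to 0.35. With 2000 to 3000 genes Psmd12 turned to 0.070, Psmd5 to -0.079 and Psma8 to 0.32. With a plate left out Psmc2 ran from -0.41 to 0.078, Psmc3 from -0.78 to 0.021 and Psmd12 from -0.59 to 0.37.

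For the difference between the bled effects in MPP1 and HSC, 0 genes became 323 with no filter. Members at an unadjusted p under 0.05, 0 at first, numbered 1 with no filter (9.68% of all genes), 4 with the mean of log2 values (7.65%), 1 with at least 2000 genes (5.04%), 1 with rescaled cells (6.14%) and 2 with 2000 to 3000 genes (6.31%). The median of 0.35 was 0.73 with the mean of log2 values, where Psmc2 turned to 0.56, Psmb4 to 0.35 and Psmb7 to 0.25. With at least 2000 genes Psmb4 turned to 0.52 and Psmb7 to 0.92. With 2000 to 3000 genes Psmb4 turned to 0.25, Psmb7 to 0.24, Psma1 to -0.58 and Psma3 to 0.39. With a plate left out Psmc5 ran from -1.31 to 0.31.

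For shares, 0 genes became 7 with detection at FPKM 5 and 40 to 167 with a plate left out; members at an unadjusted p under 0.05, 0 at first, numbered 1 with at least 2000 genes (7.43% of all genes), 2 with 2000 to 3000 genes (7.33%) and 0 to 5 with a plate left out (5.34% to 13.9%). On the arcsine scale Psma6 turned to 0.0583 with at least 2000 genes and 0.0551 with 2000 to 3000 genes, Psmb5 to 0.0412 with at least 2000 genes and Psmb7 to -0.0903 with 2000 to 3000 genes. With a plate left out Psma6 ran from -0.108 to 0.0015, Psmb5 from -0.0961 to 0.0323, Psmb6 from -0.18 to 0.0704, Psmd1 from -0.0242 to 0.257 and Psmd2 from -0.0144 to 0.21.

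Same-numbered MPP1 and HSC plates deviated with r = 0.04 across 9833 genes. The labels do not say whether plates of the same number share mice, and this correlation cannot tell. With the number as a block, 58 genes of all passed in levels and 91 in shares, and 0 members. No paired analysis was possible because the bled plates carry no number, for the tests of bleeding.

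The core minus regulatory median of 0.67 was 0.45 in cells with at least 2000 genes and 1.10 with the mean of log2 values. In bulk, asking for FPKM 10 in a library of the pair left fewer members to test. Then 5 of 9 were higher in MPP1 than in HSC (48.5% of all genes), and 12 of 14 higher and 0 lower in GMP-7 than in preGM (50.5% and 23.5%). In CLP against MPP4, 2 of 5 were higher and 2 lower (40.2% and 40.3%). In CFU-E against preMegE, 8 of 10 were higher and 0 lower (54.6% and 26.4%). In ProEry against CFU-E, 2 of 18 were lower (33.2%). In Mature Meg against MKP, 1 of 5 was higher and 4 lower (21.4% and 70.7%). With upper quartile rescaling 0 of 30 were lower in GMP-7 than in preGM (15.3%) and 2 of 30 lower in CFU-E than in preMegE (26.8%), and with a fold of 1.5 also 2 (29.0%).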
